A study of Mus musculus with 20 samples.

Results

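The metabotropic glutamate receptors encoded by Grm2, Grm3, Grm4, Grm5, Grm6, Grm7 and Grm8 were followed in mouse brains. The mice carried an inducible HIV-1 Tat transgene or lacked it, and were given daily injections of methamphetamine (Meth) or saline. These 7 genes, out of 20972 genes with a named probe on the array, were taken by their symbols, and every one of their 10 probes was kept. A probe on this one-colour array is a short oligonucleotide, and its value is the background-subtracted spot signal on a log2 scale after each array was set to the same 75th percentile. Of these probes, 9 for 6 genes were bright enough to be tested, and the single Grm6 probe was not.

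Metabotropic glutamate receptors are G protein-coupled receptors that tune synapses slowly, next to the fast glutamate-gated channels. Group I receptors, here Grm5, sit mostly behind the synapse and act through Gq and phospholipase C. Group II receptors (Grm2 and Grm3) and group III receptors (Grm4, Grm6, Grm7 and Grm8) act through Gi/o, lower cyclic AMP and mostly restrain transmitter release, with Grm3 also found in astrocytes and Grm6 known from ON bipolar cells of the retina. In the striatum these receptors act on the glutamate input from the cortex and on the output neurons that also receive dopamine.

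There were 4 groups of 5 male mice on a C57BL/6J background. All 20 mice carried a Tet-binding protein driven by the astrocyte promoter GFAP and all received doxycycline (100 mg/kg for 7 days), which is what switches the transgene on. Tat+ mice carried in addition a TRE-driven Tat transgene, and Tat− mice lacked it. Within each genotype, mice received 2 mg/kg Meth or saline (Sal) for 7 days, and the groups are named by genotype and injection (Tat−/Sal, Tat−/Meth, and likewise for Tat+). The labels give the left brain hemisphere, an age of 6 to 7 weeks and a harvest 24 h after the last injection. The methods instead give caudate putamen from mice 3 to 5 months old, with 7 days of abstinence and then a challenge of 1 mg/kg Meth in all animals, including the Sal groups, 1 h before harvest. Tat in this model came from cells with an active GFAP promoter and without virus, and its transcript was not analysed here. All 9 markers of striatal medium spiny neurons were well above background on all 20 arrays. So were 2 of 5 cortical, 3 of 4 thalamic and 2 of 4 choroid plexus markers. Of 5 cerebellar granule cell markers Zic1 and Cbln1 were, and Gabra6, Cbln3 and Neurod1 were well above background on none.

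Slides were told apart by the barcode of each scan, and slide 1 held the 5 Tat−/Meth arrays and no others. Slide 2 held the 5 Tat−/Sal arrays with 3 Tat+/Meth arrays, and slide 3 held the other 2 Tat+/Meth arrays with the 5 Tat+/Sal arrays. The bright corner control spots, which do not depend on mouse RNA, lay between 14.66 and 15.06 log2 units on slide 1, between 17.08 and 17.30 on slide 2 and between 16.80 and 17.42 on slide 3. Before scaling, the 75th percentile of log2 signal was 9.64 to 9.79 on Tat−/Meth arrays and 9.75 to 10.33 on the others. Slide 1 therefore cannot be told apart from Meth in Tat−/Meth vs. Tat−/Sal, from Tat in Tat+/Meth vs. Tat−/Meth, or from the Tat−/Meth group in any other use of it. Tat+/Sal vs. Tat−/Sal is likewise a comparison of slide 3 with slide 2, which share only the Tat+/Meth group. In this bulk tissue fewer cells of a type and less RNA per cell cannot be told apart either.

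The receptors with a probe that passed a test below were Grm3, Grm4, Grm7 and Grm8. For 3 of them a promoter entry is shown, as the sequence before the start of a gene with such a probe. The sequences are the 250 bases before the annotated start, from RefSeq on build GRCm38.p6, read 5′ to 3′ on the strand of the gene. Capitals mark matches on either strand to the AP-1 letters TGANTCA or the GC box GGGCGG. The lines give Grm8 (chr6:28135147-28135396, minus strand, the first of 3 annotated starts), Grm3 (chr5:9725353-9725602, minus strand) and Grm7 (chr6:110645262-110645511, plus strand, the first of 2 starts).
Grm8: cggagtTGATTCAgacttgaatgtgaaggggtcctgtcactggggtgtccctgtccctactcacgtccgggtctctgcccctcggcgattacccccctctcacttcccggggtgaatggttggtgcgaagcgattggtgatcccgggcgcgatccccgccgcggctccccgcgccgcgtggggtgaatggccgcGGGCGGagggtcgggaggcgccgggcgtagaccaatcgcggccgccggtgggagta
Grm3: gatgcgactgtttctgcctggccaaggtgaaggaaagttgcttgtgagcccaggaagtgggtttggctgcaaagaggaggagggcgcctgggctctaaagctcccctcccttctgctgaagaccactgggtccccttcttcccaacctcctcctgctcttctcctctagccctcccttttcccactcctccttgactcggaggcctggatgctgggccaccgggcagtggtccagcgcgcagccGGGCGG
Grm7: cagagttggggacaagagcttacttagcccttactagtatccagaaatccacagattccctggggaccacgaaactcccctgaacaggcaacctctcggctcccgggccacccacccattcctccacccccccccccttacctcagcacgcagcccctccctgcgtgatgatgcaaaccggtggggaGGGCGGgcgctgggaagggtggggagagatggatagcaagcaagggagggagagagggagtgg
The AP-1 letters were found once in this Grm8 window, in neither of the other Grm8 windows, and not in the Grm3 or Grm7 window, and 6.75% of 32851 windows of this length held them. Each of the 3 windows held the GC box letters once, as did 32.7% of all windows at least once. The full cyclic AMP element TGACGTCA (1.55% of windows) and the TATA letters TATAAA (12.4%) were in none of the 3. These matches describe letters and were not set against any binding data.

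Grm8 was the receptor with the largest group differences among those tested. It encodes mGlu8, a presynaptic group III receptor with high affinity for glutamate. Its probe A_55_P1996702 was well above background on all 20 arrays. In Tat−/Sal the 5 arrays read 9.59, 9.51, 9.89, 9.37 and 9.72 log2 units, and in Tat+/Sal they read 9.92, 9.92, 9.83, 9.46 and 9.43. The Tat−/Meth arrays read 10.15, 9.37, 10.04, 10.28 and 9.64. The Tat+/Meth arrays read 9.23, 9.25 and 8.93 on slide 2 and 8.63 and 9.15 on slide 3. All 5 Tat+/Meth arrays were thus lower than all 15 other arrays, and the other 3 groups overlapped each other. Of the 31516 probes tested, 19 (0.0603%) had all Tat+/Meth arrays below all others, and 2 (0.00635%) had them above.

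**Figure D1:**
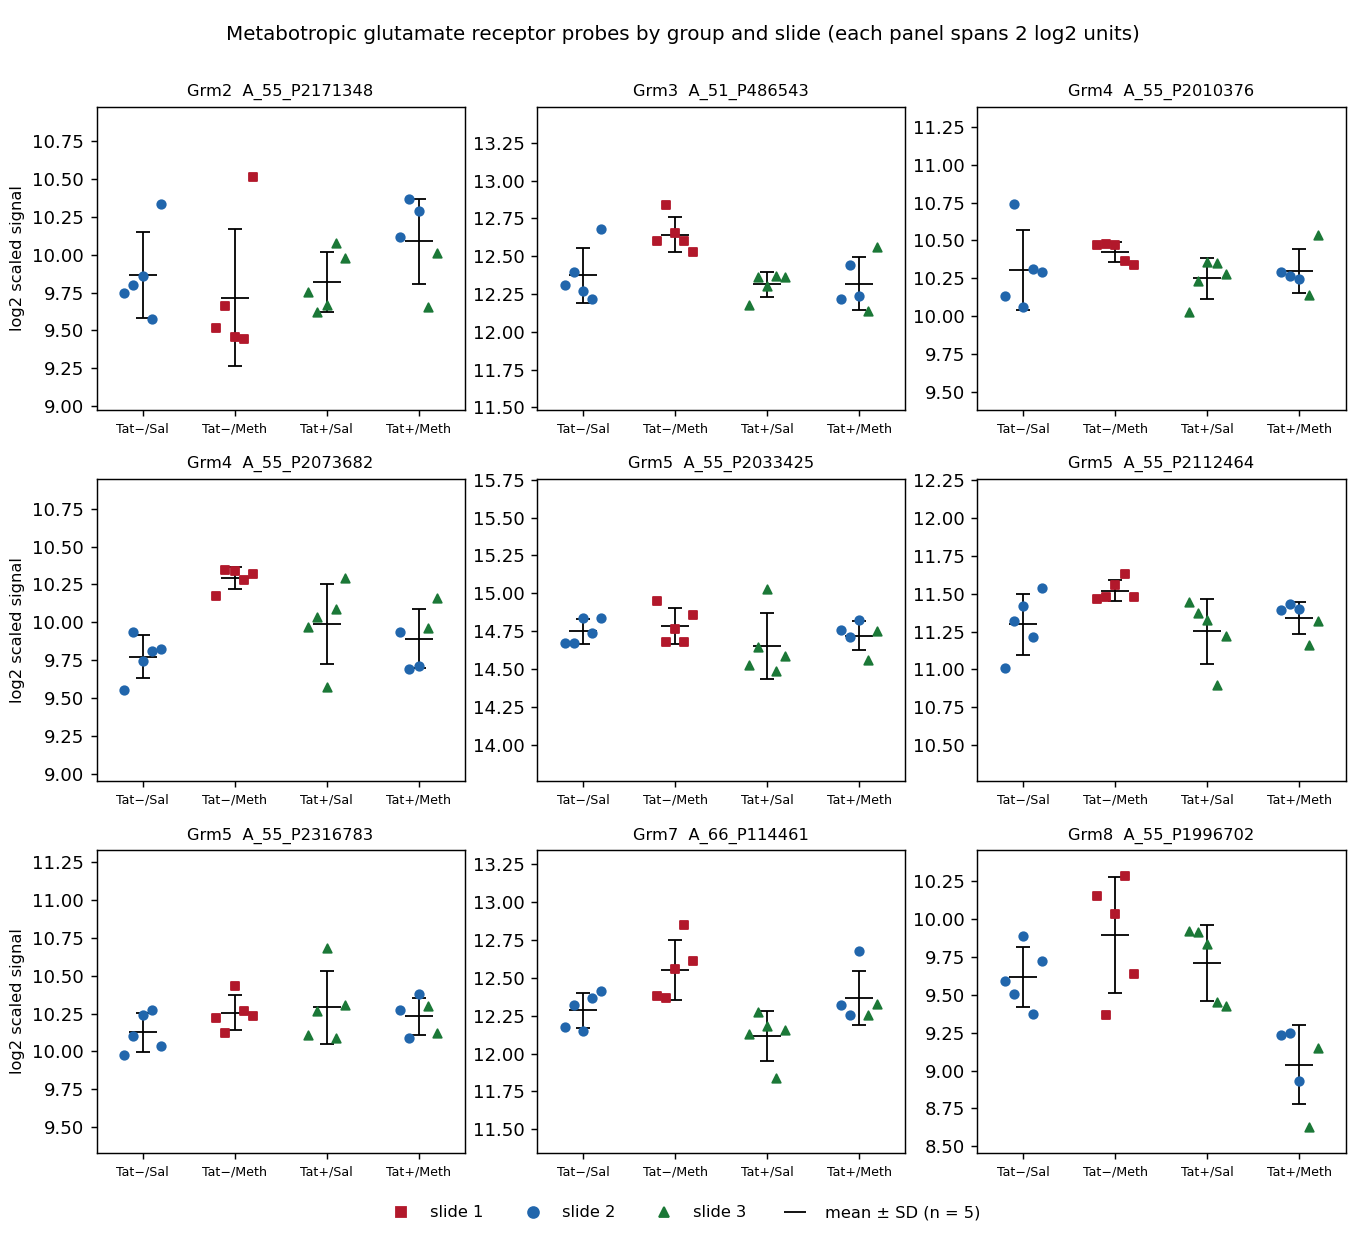
Log2 scaled signal (vertical axis) of the 9 receptor probes tested in each group (horizontal axis), 1 point per array with its slide given by colour and shape, and bars for the mean ± SD of 5 arrays. Each panel spans 2 log2 units, and in the Grm8 panel the 5 Tat+/Meth arrays lie between 8.63 and 9.25, under every other array.

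Grm8 in Tat+/Meth vs. Tat−/Meth fell by 0.86 on the log2 scale (SE 0.17, 1.81-fold, Benjamini-Hochberg adjusted *p* = 0.000372 in limma), from 9.89 ± 0.38 to 9.04 ± 0.26 (SD, n = 5). Here 53.5% of all probes passed the same test and 30.3% passed it as lower, so a lower Grm8 was one of many such probes. Against Tat+/Sal the difference was −0.67 (SE 0.17, 95% interval −1.03 to −0.32), with groups that did not overlap, as was the case in the lower direction for 1.08% of probes. Its unadjusted *p* was 0.000924 in the limma fit, rank 109 of 31516, and its adjusted *p* of 0.242 missed the threshold. Against Tat−/Sal it was −0.58 (SE 0.17, 95% interval −0.94 to −0.22), again without overlap (0.892% of probes in the lower direction), with a limma unadjusted *p* of 0.00317 and an adjusted *p* of 0.778. These comparisons share the Tat+/Meth arrays.

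Slides 2 and 3 allow the same comparison without a change of slide. On slide 2 the mean was 9.14 in 3 Tat+/Meth arrays and 9.62 in 5 Tat−/Sal arrays, a difference of −0.48. On slide 3 the mean was 8.89 in 2 Tat+/Meth arrays and 9.71 in 5 Tat+/Sal arrays, a difference of −0.82. Their direction follows from all Tat+/Meth arrays lying below the rest and is no separate evidence, and neither difference passed the limma test over all probes (adjusted *p* = 0.51 on slide 2 and 0.972 on slide 3). Over all slides, leaving out each array in turn gave −0.74 to −0.57 against Tat+/Sal and −0.64 to −0.48 against Tat−/Sal.

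**Figure D2:**
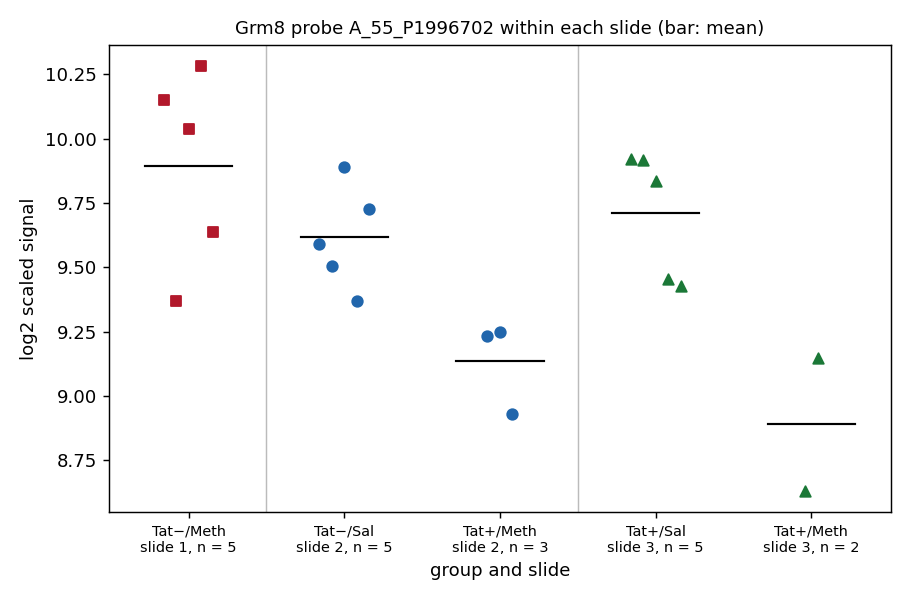
Log2 scaled signal of the Grm8 probe (vertical axis) by group and slide (horizontal axis), 1 point per array, with a bar at the mean. Within slide 2 the 3 Tat+/Meth arrays (8.93 to 9.25) lie under the 5 Tat−/Sal arrays (9.37 to 9.89), and within slide 3 the 2 Tat+/Meth arrays (8.63 and 9.15) lie under the 5 Tat+/Sal arrays (9.43 to 9.92).

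The interaction (how far the Meth difference of Tat+ mice exceeds that of Tat− mice) was −0.95 for Grm8 (SE 0.24, 95% interval −1.46 to −0.45, adjusted *p* = 0.00452). It joins a difference of −0.67 in Tat+ mice with one of 0.28 in Tat− mice (SE 0.17, adjusted *p* = 0.182), and 37% of all probes passed this test. The Tat−/Meth side rests on slide 1, where replicate 2 read 9.37 and the other 4 arrays 9.64 to 10.28. Without that array the difference in Tat−/Meth vs. Tat−/Sal was 0.41 with an adjusted *p* of 0.0429. Among the marker lists, the mean over 4 oligodendrocyte genes was 14.01 to 14.42 in Tat+/Meth, 14.45 to 14.59 in Tat+/Sal, 14.23 to 14.66 in Tat−/Sal and 14.32 to 14.69 in Tat−/Meth. In Tat+/Meth vs. Tat−/Meth, where Grm8 passed, 4 of 6 oligodendrocyte probes were lower and 0 higher, against 30.3% of all probes lower. Against Tat+/Sal and against Tat−/Sal 0 of the 6 passed in Tat+/Meth, where 0% and 0.00317% of all probes did. The mean over 5 cortical genes was 5.55 to 6.69 in Tat+/Meth, 5.40 to 7.83 in Tat+/Sal, 6.36 to 7.97 in Tat−/Sal and 5.86 to 6.86 in Tat−/Meth. Of their 4 probes tested 0 passed in Tat+/Meth vs. Tat−/Meth, against 53.5% of all probes. The part of these markers in the Grm8 result was not tested.

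Grm4 encodes mGlu4, another presynaptic group III receptor, found on striatal output terminals. It had 2 probes, both designed to the same transcript record, and they did not give the same call. Probe A_55_P2073682 read 9.55, 9.94, 9.75, 9.81 and 9.82 in Tat−/Sal and 10.17, 10.35, 10.34, 10.28 and 10.32 in Tat−/Meth. Tat+/Sal arrays read 9.97, 10.03, 9.57, 10.09 and 10.29, and Tat+/Meth arrays 9.94, 9.69, 9.71, 9.96 and 10.16. All Tat−/Meth arrays were above all Tat−/Sal and all Tat+/Meth arrays and overlapped with Tat+/Sal. The rise in Tat−/Meth vs. Tat−/Sal was 0.52 (SE 0.11, 1.43-fold, adjusted *p* = 0.00097), and 20.3% of probes had groups apart in this direction. Against Tat−/Meth, the probe in Tat+/Meth fell by 0.40 (SE 0.11, adjusted *p* = 0.00648), and the interaction was −0.62 (SE 0.16, adjusted *p* = 0.00552).

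The other Grm4 probe, A_55_P2010376, read 10.13, 10.74, 10.06, 10.31 and 10.29 in Tat−/Sal and 10.47, 10.47, 10.47, 10.36 and 10.34 in Tat−/Meth. Tat−/Sal replicate 2 was above every Tat−/Meth array, so the groups overlapped. Its difference was 0.12 (SE 0.11, 95% interval −0.10 to 0.34, adjusted *p* = 0.369), and without that Tat−/Sal array it was 0.23 (adjusted *p* = 0.0379). Between Tat+/Meth and Tat−/Meth it differed by −0.13 (adjusted *p* = 0.328). Over the 15 arrays outside slide 1 the Pearson correlation between the 2 Grm4 probes was 0.24, a description of arrays that share their scaling. The change in Grm4 was therefore seen with 1 of its 2 probes.

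Grm3 encodes mGlu3, the group II receptor of astrocytes and of some neurons. Its probe A_51_P486543 read 12.31, 12.39, 12.27, 12.22 and 12.68 in Tat−/Sal and 12.60, 12.84, 12.65, 12.60 and 12.53 in Tat−/Meth. Tat+/Sal arrays read 12.18, 12.36, 12.30, 12.37 and 12.36, and Tat+/Meth arrays 12.22, 12.44, 12.24, 12.14 and 12.56. Tat−/Meth arrays were high as a group, and they overlapped with Tat−/Sal through replicate 5 of the latter and with Tat+/Meth through its replicate 5. Grm3 rose by 0.27 in Tat−/Meth vs. Tat−/Sal (SE 0.09, 1.21-fold, adjusted *p* = 0.0216) and fell by 0.32 in Tat+/Meth vs. Tat−/Meth (SE 0.09, 1.25-fold, adjusted *p* = 0.00671). The first call was lost without Tat−/Meth replicate 2 (0.22, adjusted *p* = 0.064), Tat−/Sal replicate 3 (0.24, 0.0528) or Tat−/Sal replicate 4 (0.23, 0.0601). It was also lost after median scaling (0.39, adjusted *p* = 0.108).

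Astrocyte markers moved with Grm3. In Tat−/Meth vs. Tat−/Sal, 7 of 11 probes of the 6 astrocyte genes were higher and 0 lower, against 28.1% of all probes higher. In Tat+/Meth vs. Tat−/Meth 8 were lower and 0 higher, against 30.3% of all probes lower. Gja1, the main gap junction protein of astrocytes, rose by 0.84 in the former (adjusted *p* = 6.1e-07), and Slc1a3, an astrocyte glutamate transporter, rose by 0.31 (adjusted *p* = 0.0056). Averaged over the 6 genes, the level lay between 12.54 and 12.88 on Tat−/Meth arrays and between 12.20 and 12.40 on all others, and all 6 genes were well above background on all 20 arrays. The mean over 4 thalamic genes was lower, at 7.95 to 8.15 in Tat−/Meth and 8.38 to 9.05 elsewhere, but these genes differed in direction. In Tat−/Meth vs. Tat−/Sal 2 of their 8 probes were higher and 2 lower, where 50.3% of all probes passed. Tcf7l2 fell by 1.61 (adjusted *p* = 6.2e-11) and Lef1 by 0.39, while Prkcd rose by 0.50 (adjusted *p* = 0.00261). The part of the astrocyte and thalamic markers in the Grm3 result was not tested. Grm3 in Tat+/Meth vs. Tat+/Sal differed by 0.00 (95% interval −0.19 to 0.20).

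Grm2, the other group II gene, encodes mGlu2, an autoreceptor of glutamate terminals. Probe A_55_P2171348 read 9.75, 9.80, 9.86, 9.57 and 10.34 in Tat−/Sal and 9.51, 9.66, 9.46, 9.44 and 10.51 in Tat−/Meth. Tat+/Sal arrays read 9.76, 9.62, 9.67, 10.07 and 9.98, and Tat+/Meth arrays 10.12, 10.37, 10.29, 9.66 and 10.01. Tat−/Meth replicate 5 was the highest of all 20 arrays, although the other 4 arrays of its group were low, and every pair of groups overlapped. That replicate also had 70.8% of all probes well above background, against 56.4% to 60.2% on the other 4 arrays of its group. No comparison passed the test. The difference was −0.15 in Tat−/Meth vs. Tat−/Sal (95% interval −0.55 to 0.26) and 0.37 in Tat+/Meth vs. Tat−/Meth (−0.03 to 0.77, adjusted *p* = 0.111). The latter depended on single arrays, with 0.57 (adjusted *p* = 0.00391) without Tat−/Meth replicate 5 and 0.48 (0.0478) without Tat+/Meth replicate 4.

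Grm7 encodes mGlu7, a group III receptor of the presynaptic active zone with low affinity for glutamate. Its probe A_66_P114461 read 12.18, 12.32, 12.15, 12.37 and 12.41 in Tat−/Sal and 12.38, 12.37, 12.56, 12.85 and 12.61 in Tat−/Meth. Tat+/Sal arrays read 12.13, 12.27, 12.18, 11.84 and 12.15, and Tat+/Meth arrays 12.32, 12.25, 12.68, 12.25 and 12.33. In both genotypes 3 of 5 Meth arrays were above all Sal arrays of the same genotype, and the groups overlapped. The rise in Tat−/Meth vs. Tat−/Sal was 0.27 (SE 0.11, adjusted *p* = 0.0416). The difference in Tat+/Meth vs. Tat+/Sal was 0.25 (SE 0.11, adjusted *p* = 0.383). The interaction was −0.02 (95% interval −0.33 to 0.30). The call in Tat− mice held in 3 of 9 other settings and in 14 of 20 fits that each left out 1 array, where the difference ran from 0.19 to 0.31. It was lost without Tat−/Meth replicate 3, 4 or 5 and without Tat−/Sal replicate 1, 2 or 3, with adjusted *p* between 0.0561 and 0.127.

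Grm5 encodes mGlu5, the Gq-coupled receptor of striatal output neurons and the only group I receptor described here. None of its 3 probes passed a test. A_55_P2033425 and A_55_P2112464 were designed to the same transcript record and A_55_P2316783 to another. A_55_P2033425 ranged from 14.49 to 15.03 over the 20 arrays, with group means of 14.75 ± 0.08 in Tat−/Sal, 14.78 ± 0.12 in Tat−/Meth, 14.65 ± 0.22 in Tat+/Sal and 14.72 ± 0.10 in Tat+/Meth (SD, n = 5). Its differences over the 5 comparisons lay between −0.10 and 0.07, with intervals that reached at most −0.28 and 0.25. Every pair of groups overlapped.

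A_55_P2112464, the Grm5 probe with the largest difference of the 3, read 11.01, 11.32, 11.42, 11.22 and 11.54 in Tat−/Sal and 11.47, 11.48, 11.56, 11.63 and 11.48 in Tat−/Meth. Of the Tat−/Sal arrays, 4 were below every Tat−/Meth array and replicate 5 was not. The difference was 0.22 (95% interval 0.01 to 0.44, adjusted *p* = 0.0771), and it passed without that Tat−/Sal array (0.28, 0.0316) and without Tat+/Sal replicate 4 (0.22, 0.0368). Tat+/Meth arrays read 11.39, 11.43, 11.40, 11.16 and 11.32, all below Tat−/Meth, as was the case for 21.1% of probes, and the difference of −0.18 did not pass (adjusted *p* = 0.145). A_55_P2316783 ranged from 9.97 to 10.68 and differed by 0.13 in Tat−/Meth vs. Tat−/Sal (95% interval −0.08 to 0.34).

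Grm6 encodes mGlu6, the receptor with which retinal ON bipolar cells read glutamate. Its probe A_55_P1990623 was not well above background on any of the 20 arrays, with readings from 2.07 to 5.02, so the array gave only a bound and it was not tested. Of its partners in the ON bipolar cell cascade, Rgs11, Gnb5 and the channel gene Trpm1 were well above background on all 20 arrays, while Nyx was on 4 and Gpr179 on 15. Of 5 retina markers, 0 were well above background on all 20 arrays. Trpm1 fell by 2.13 from 11.95 ± 0.38 in Tat−/Sal to 9.83 ± 0.26 in Tat−/Meth (SD, n = 5, SE of the difference 0.31, adjusted *p* = 1.95e-05), with Tat+/Sal at 11.85 and Tat+/Meth at 12.06.

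Over all receptors, 3 of 9 probes passed in Tat−/Meth vs. Tat−/Sal, all higher, where 50.3% of all probes passed and 28.1% were higher. Between Tat+/Meth and Tat−/Meth 3 of 9 passed, all lower, against 53.5% and 30.3%. In the interaction 2 of 9 passed, both lower, where 18.1% of all probes passed as lower. The receptor counts in the direction named were thus near the background share. Without Tat−/Sal replicate 3 the count in Tat−/Meth vs. Tat−/Sal was 1. No receptor probe that passed changed by more than 2-fold, whereas 11.6% of all probes passed and exceeded 2-fold in Tat−/Meth vs. Tat−/Sal.

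In the comparisons that do not use slide 1 no receptor probe passed. With Meth in Tat+ mice 0 of 9 passed the adjusted limma test, as did 0% of all probes, and 2 of 9 (Grm7 and Grm8) had an unadjusted *p* under 0.05 against 11.5% of all probes. The comparison for Tat alone, Tat+/Sal vs. Tat−/Sal, is also one between slides, as these groups lay on slides 3 and 2. In it 0 of 9 passed in limma against 0.708% of all probes, and 0 of 9 had an unadjusted *p* under 0.05 against 16.6%. The differences there ran from −0.17 (Grm7) to 0.22 (Grm4 A_55_P2073682, 95% interval −0.02 to 0.46). With slide as a fixed block 0 of 31516 probes passed in this comparison, and the Grm8 difference was 0.34 against 0.09 without the block. Between Tat+/Meth and Tat−/Sal 0 of 9 passed in limma against 0.00317% of all probes, and 1 of 9, Grm8, had an unadjusted *p* under 0.05 against 6.31%. The methods' t-test after adjustment also called 0 of 9 in each of these 3 comparisons.

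**Figure D3:**
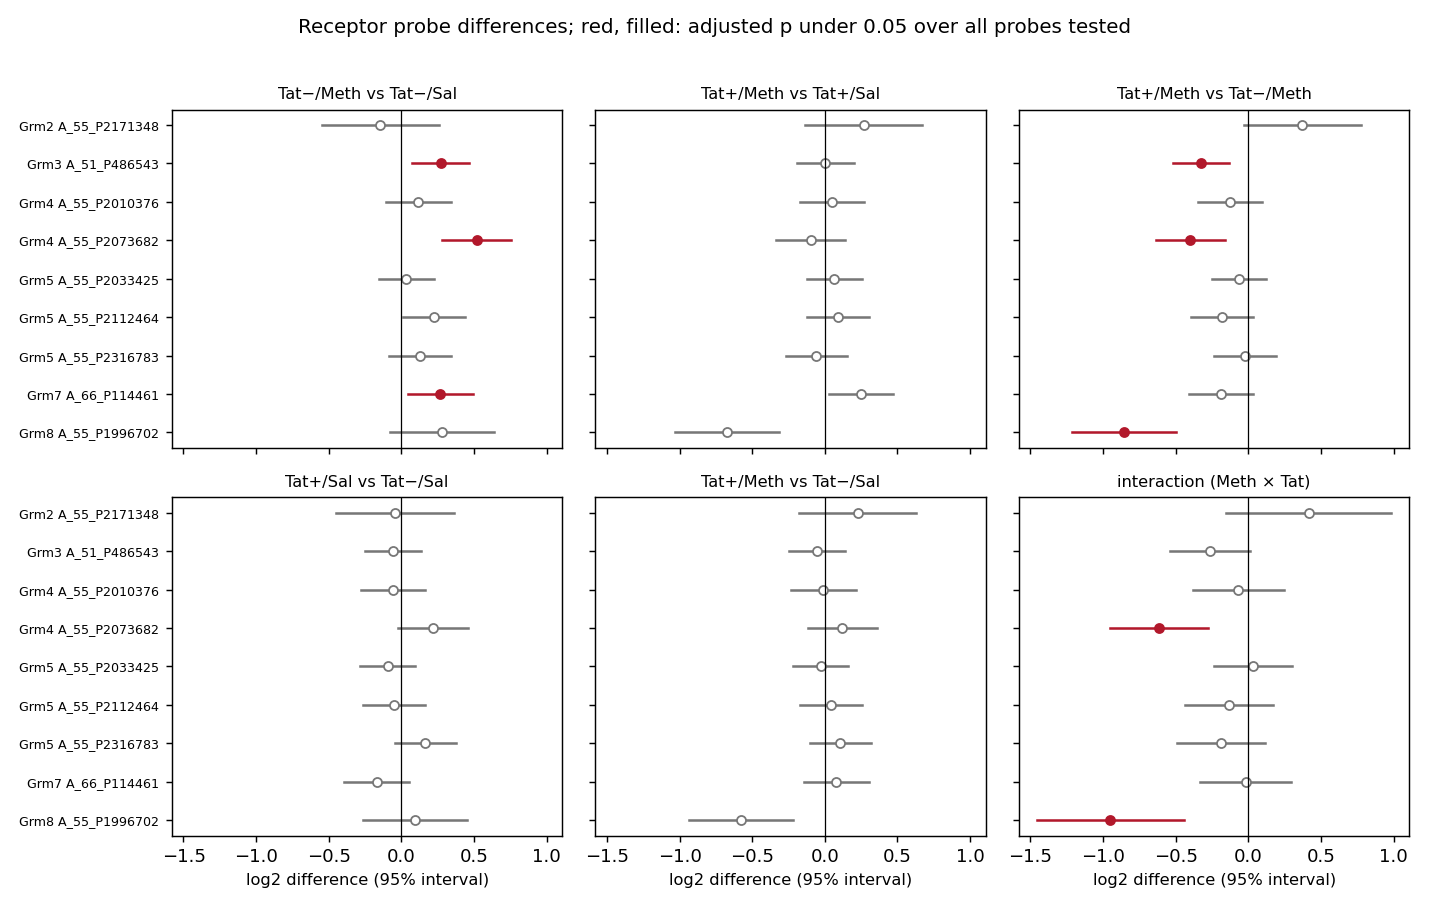
Log2 differences (horizontal axis) of the 9 receptor probes (vertical axis) in the 5 comparisons and the interaction, with 95% intervals, red and filled where the adjusted *p* over all 31516 probes was under 0.05. All 8 filled points involve the Tat−/Meth arrays, and Grm8 lies at −0.67 and −0.58 with open points in the 2 Tat+/Meth comparisons with saline groups.

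The median of all probes was not at 0 in comparisons with slide 1, and it moved with the scaling. In Tat−/Meth vs. Tat−/Sal it was 0.10 as scaled here, 0.22 after median scaling and 0.28 after normexp background correction, with which 55669 probes were bright enough to be tested. Relative to that median, Grm4 A_55_P2073682 was higher by 0.42 as scaled here and by 0.22 after normexp. Grm3 was higher by 0.17 and Grm7 by 0.17 as scaled here, but with normexp they lay at −0.01 and −0.07, so their direction relative to the other probes flipped. Between Tat+/Meth and Tat−/Meth, Grm8 lay −0.76 from the median as scaled here and −0.51 with normexp.

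Genes that carry the receptors' signals were counted from lists. Of the Gq effectors on the Grm5 side, 15 probes of 11 genes were tested. Of these, 2 were higher and 1 lower in Tat−/Meth vs. Tat−/Sal, against 50.3% of all probes past the test (28.1% higher), and their median difference was 0.07 against 0.10 for all probes. Itpr1, the calcium release channel of the endoplasmic reticulum, fell by 0.21 (adjusted *p* = 0.00451). Between Tat+/Meth and Tat−/Meth, where 53.5% of all probes passed and 30.3% were lower, 1 probe was higher and 4 were lower, among them Prkcb, a protein kinase C (−0.26, adjusted *p* = 0.0303).

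Of the Gi/o, cyclase and GIRK channel genes on the side of groups II and III, 13 genes had 17 probes, of which 15 were tested, and 2 rose and 2 fell in Tat−/Meth vs. Tat−/Sal, against 50.3% of all probes past the test. Adcy5, the main adenylyl cyclase of the striatum, fell by 0.42 from 16.06 ± 0.07 to 15.64 ± 0.08 (SD, n = 5, adjusted *p* = 1.24e-05). The inhibitory G protein gene Gnai2 fell by 0.49 (adjusted *p* = 0.000357), and Adcy9, another cyclase, rose by 0.49 (adjusted *p* = 0.00182). Between Tat+/Meth and Tat−/Meth 2 probes were higher and 4 lower, against 53.5% of all probes past the test, with Adcy5 at 0.40, Gnai2 at 0.52 and Adcy9 at −0.42. Adcy3 passed in the interaction (−0.49, adjusted *p* = 0.0241).

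Of the receptor partners and regulators, 18 of 19 genes had a probe and 28 probes of 17 genes were tested. Of them, 4 rose and 7 fell in Tat−/Meth vs. Tat−/Sal, against 50.3% of all probes past the test. Of all probes, 53.5% passed between Tat+/Meth and Tat−/Meth, where 7 of the 28 were higher and 7 lower. In Tat−/Meth vs. Tat−/Sal the scaffold gene Homer3, whose protein tethers group I receptors, fell by 1.39 (SE 0.52, adjusted *p* = 0.0335). In the same comparison Rgs4, which shortens Gi/o and Gq signals, fell by 0.53 (adjusted *p* = 0.000568). Homer3 was higher by 2.00 in Tat+/Meth vs. Tat−/Meth (SE 0.52, adjusted *p* = 0.00345). Arrb2, a beta-arrestin, differed by −0.69 in Tat+/Meth vs. Tat−/Meth (adjusted *p* = 0.000179). Pick1, which binds the tail of mGlu7, had an interaction of −0.71 (adjusted *p* = 0.0077). In the 3 comparisons without slide 1, where 0%, 0.708% and 0.00317% of all probes passed the limma test, 0 probes of these lists did.

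**Figure D4:**
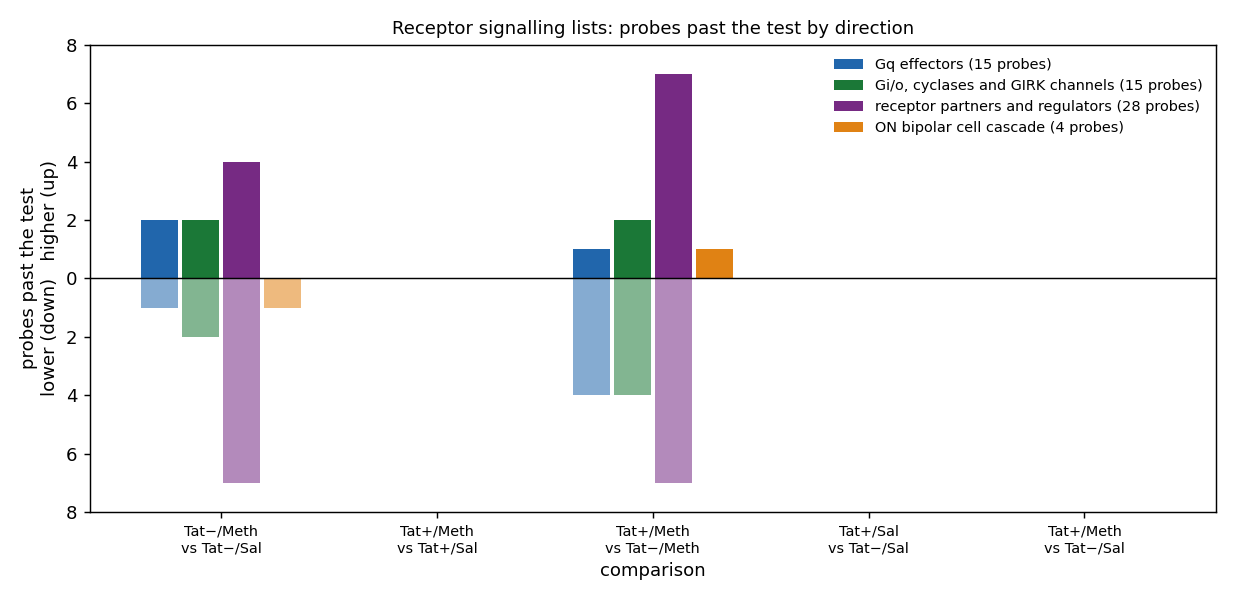
Number of probes past the test (vertical axis, higher upward in full colour and lower downward in pale colour) for 4 signalling lists in each of the 5 comparisons (horizontal axis). Bars appear in the 2 comparisons that use the Tat−/Meth arrays, up to 7 in each direction for receptor partners and regulators, and there are none in the other 3.

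Genes whose values followed a receptor over the 15 arrays outside slide 1 were ranked among 18242 probes. These arrays include 3 groups and share scaling, so the values describe likeness only. Nearest to Grm8 were Cipc, a circadian regulator (Pearson's r = 0.95, Spearman's rho = 0.93), and Sec11c, a signal peptidase subunit (0.91 and 0.89). Without the 2 arrays farthest from the Grm8 median, r was 0.88 and 0.83. Nearest to Grm3 was Adprh (r = 0.92), to the brightest Grm5 probe Cc2d1b (0.92), to Grm7 Mbtd1 (0.92), to Grm2 1700056E22Rik (0.94) and to the brighter Grm4 probe Pgap1 (0.82, and 0.59 without the 2 farthest arrays). Between receptor probes r ran from −0.61 (Grm5 A_55_P2033425 with Grm4 A_55_P2073682) to 0.57 (Grm5 A_55_P2112464 with Grm7).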

How the data were processed

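RNA from 20 mice (4 groups of 5, taken from the sample titles) was hybridised to 20 one-colour arrays with 55681 probes. The intensity values deposited by the authors are background-subtracted spot signals from Agilent Feature Extraction 10.7.3.1 per the file headers, with 1 channel. The labels name Cy3, while the methods name Cy5 and another scanner. The series matrix intensity values deposited by the authors follow the same signal plus a constant per array and served as an alternative. Here, spots with outlier flags (4278 in all) were left out, spots of a probe were averaged as log2 values, and arrays were scaled to the 75th percentile with the mean added back. Symbols came from the transcript record of each probe.

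Probes with a mean of at least 6 in 1 or more groups (31516) were fitted in limma 3.58.1 (R 4.3.3) with 1 mean per group over all 20 arrays, with Benjamini-Hochberg adjustment over all of them (adjusted *p*, threshold 0.05). The fit was also run on simulated data with no slide effect, which cannot speak to the differences between slides. Intervals are at 95%, and the number of arrays limits the precision. The receptors, the signalling and marker lists and the tests were chosen with earlier results of these data known. All receptor probes are named, with genes from the 3 largest passing changes of each signalling list and comparison (some are not reported here) and the 2 genes most like each receptor, of which Lcn12, Lsm1, Fars2, Cobl and Pcdhb21 are second in likeness. The alternatives were other scaling, background correction, filters, probe choice, slide and replicate blocks, the methods' t-test and thresholds, and leaving out each array. Probe sequences were not used here. Python 3.11.15 with pandas 2.3.3 and matplotlib 3.10.9 was used for the rest.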

Additional observations from a re-analysis of the deposited data

Results flagged for a closer look

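For Grm8 (A_55_P1996702) the difference with Meth was not the same in the genotypes, with an interaction of −0.95 log2 units (adjusted *p* = 0.00452). The same holds for Grm4 A_55_P2073682, with −0.62 (adjusted *p* = 0.00552). Both interactions use the Tat−/Meth arrays, all of them on slide 1, and the group and that slide cannot be told apart.

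In 3 of 36 sets of 5 arrays, 1 array stood far from the rest. Grm2 read 10.51 in Tat−/Meth replicate 5 with the next array at 9.66, Grm7 read 12.68 in Tat+/Meth replicate 3 with the next at 12.33, and Grm5 A_55_P2033425 read 15.03 in Tat+/Sal replicate 3 with the next at 14.64. Chance gives about 1 such set in 20. Without Tat+/Meth replicate 3, Grm7 passed in Tat+/Meth vs. Tat−/Meth (−0.27, adjusted *p* = 0.0343).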

How the results depend on the processing

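All 8 receptor differences past the test kept their sign under every setting run, while 20 of the 46 others changed sign under at least 1. The calls of Grm8 and Grm4 A_55_P2073682 in Tat+/Meth vs. Tat−/Meth and in the interaction, of Grm3 in the former and of that Grm4 probe with Meth in Tat− mice held in each scaling, filter, block and left-out array that gave a value. None of these settings separates the Tat−/Meth group from slide 1. In Tat−/Meth vs. Tat−/Sal the count of 3 probes was 1 after median scaling, 1 to 4 when arrays were left out in turn (1 without Tat−/Sal replicate 3) and 0 at an adjusted *p* under 0.01 with 3-fold. These stricter limits also gave 0 in Tat+/Meth vs. Tat−/Meth and 0 for the interaction, whose count was 1 with the brightest probe of each gene, since Grm4 A_55_P2073682 is then not in the fit. The methods' t-test without adjustment called 1 probe when Tat+/Meth was set against either saline group. With normexp, 80.7% of the probes past the test in Tat−/Meth vs. Tat−/Sal were higher, against 55.8% in the fit reported, and 21.9% against 43.4% in Tat+/Meth vs. Tat−/Meth, and 25.3% against 51.2% in the interaction. Correlations of same-numbered arrays ran from −0.14 to 0.31, and 9 of 20 arrays were closest to their own number. Whether replicate numbers pair the arrays is not settled by these values, and the fit reported does not pair them. With the replicate block 2 probes passed for Meth in Tat− mice, as Grm7 had an adjusted *p* of 0.0582, and 3 in Tat+/Meth vs. Tat−/Meth. Slide as a fixed block could not be fitted for comparisons with Tat−/Meth. Slide as a random block (correlation −0.06) called 4 for Meth in Tat− mice and 3 in the interaction. With this negative correlation the limma adjusted *p* of Grm8 in Tat+/Meth vs. Tat−/Meth was 0.000106 against 0.000372 without the block. This block therefore cannot test whether slide made the calls. Grm6 was not tested as reported.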
